A study of Danio rerio with 14 samples.

Results

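Heat shock proteins and molecular chaperones were taken from the tables by gene symbol: symbols beginning with hsp, dnaj, pdia or ahsa1, and those of the cytosolic chaperonin subunits cct2 to cct8. Of 36351 genes in the deposited tables, 99 had such a symbol and 98 reached a mean of at least 10 normalized counts over the 8 libraries of at least 1 table. Of these members, 97 reached it in the boscalid table and 98 did in the other. The gene between these counts, dnajb13, averaged 9.23 normalized counts with boscalid, and the gene below the limit in both tables was dnajc5b, at 5.09 with M510F01, 6.52 with boscalid and 7.41 with DMSO. By the known place of the protein, 55 members belong to the cytosol and nucleus, 22 to the endoplasmic reticulum (ER), 10 to the mitochondrion and 11 to none of these or to no settled place. The last group includes hspg2, which encodes the matrix protein perlecan and is no chaperone in spite of its symbol.

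Zebrafish of the wild-type AB strain were exposed from 3 to 96 hours post fertilization, and RNA of whole larvae was taken at 96 hours. One group received M510F01, a metabolite of boscalid, at 0.03 µg/L, and another received boscalid, a fungicide that inhibits mitochondrial succinate dehydrogenase, at 0.03 µg/L. The control group received the solvent dimethyl sulfoxide (DMSO) at 0.01% v/v. The tables held 4 libraries of each group, with 12893093 to 17060350 reads assigned to genes per library, and 1 further sample of each compound was not analysed here. Whether the libraries of a group are separate clutches, tanks or pools is not in the labels, so a p-value reflects only how far these samples differ among themselves. In whole larvae, fewer cells of a type and less RNA per cell cannot be told apart.

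Chaperones bind unfolded or partly folded proteins and let them fold without clumping. In the cytosol, HSP70 and HSP90 proteins do this with J-domain partners (the dnaj genes), small heat shock proteins hold unfolding proteins, and the ring-shaped chaperonin CCT folds actin and tubulin. Heat shock factor 1 induces a subset of these genes when proteins unfold, and in zebrafish larvae hsp70l is a widely used reporter of that response. The ER has its own set, led by hspa5 (BiP), hsp90b1 (GRP94) and the protein disulfide isomerases, which the unfolded protein response induces. The mitochondrial matrix has hspa9 and the chaperonin made by hspd1 and hspe1.

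No member passed an adjusted p of 0.05 in any of the 3 comparisons when groups alone were fitted with limma, edgeR or DESeq2. With boscalid against DMSO, limma called 0 of 97 members and 4 of 23085 genes tested (0.0173%). The smallest adjusted p of a member was 0.65 for hsp70.1. At an unadjusted p under 0.05 there were 4 members (4.12%) against 7.68% of all genes, and edgeR and DESeq2 each called 0 members. They put 7 members (7.22%, against 7.66% of all genes, edgeR) and 8 (8.25%, against 7.33%, DESeq2) under that unadjusted p. With M510F01 against DMSO, limma called 0 of 98 members and 0 of 23193 genes (0%), with a smallest adjusted p of 0.9998 for a member. Here 5 members (5.10%) had an unadjusted p under 0.05 against 3.61% of all genes, and 12 (12.2%) did with edgeR, against 3.67% of all genes, and 12 with DESeq2, against 3.54%. Both tools also called 0 members, and their fits were not repeated without single libraries. In the authors' deposited values for M510F01, 12 members were under that unadjusted p as well. Of these, hsp70l, hsp70.1, hsp70.2, hsp70.3, dnajb1b, hsph1, hspb1, hsp90aa1.2 and hspa5 had their highest value of the 12 libraries in DMSO replicate 4. For hsp90b1, pdia4 and pdia6 the highest value lay in another library. Among the DMSO libraries alone, DMSO replicate 4 was also the highest for hsp90b1 and pdia4. Without it their unadjusted limma p with M510F01 against DMSO was 0.0752 for hsp90b1 and 0.0878 for pdia4. Between M510F01 and boscalid, limma called 0 of 98 members and 3 of 23075 genes (0.013%), with a smallest adjusted p of 0.84 for a member. There 5 members (5.10%) had an unadjusted p under 0.05 against 4.6% of all genes, and edgeR and DESeq2 called 0 members. They put 6 (6.12%, against 4.61% of all genes, edgeR) and 7 (7.14%, against 4.48%, DESeq2) under it. The values that follow are therefore given as levels and estimates, and none of them is a call.

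The heat-inducible HSP70 genes varied most. In normalized counts (reads scaled by 1 size factor for each library, set here over the 12 libraries together), hsp70l (LL0000012368) stood at 599, 853, 564 and 466 in M510F01 libraries 1 to 4. It stood at 457, 777, 493 and 261 in boscalid libraries 1 to 4 and at 623, 1209.6, 615 and 6717 in DMSO libraries 1 to 4. The groups overlapped, and DMSO replicate 4 alone lay far above the other libraries, at 11.2 times their median. The same library was highest for the tandem copies hsp70.1 (1437, 10.7 times the median of the other 11 libraries), hsp70.2 (2718, 5.01 times) and hsp70.3 (4625, 5.83 times).

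Hsp70.1, hsp70.2 and hsp70.3 are neighbours in the RefSeq annotation and near-identical in sequence, so the split of reads between them is uncertain. The tables give hsp70.1 and hsp70.2 the same Entrez gene number. Summed with hsp70l, which lies elsewhere, the 4 genes held 1923, 2468, 2079 and 1611 normalized counts in M510F01 libraries 1 to 4. They held 1641, 2398, 2083 and 1179 in the boscalid libraries and 2129.8, 4129, 2009.6 and 15496 in the DMSO libraries. DMSO replicate 2 was the next highest library, above every library of either compound.

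The fold changes of the HSP70 copies carried this spread. For hsp70l the log2 fold change was -1.13 with M510F01 (SE 0.68, 95% confidence interval -2.65 to 0.39) and -1.52 with boscalid (SE 0.67, -2.99 to -0.05), each against the same DMSO libraries. For hsp70.1 it was -1.44 with M510F01 (SE 0.63) and -1.495 with boscalid (SE 0.61), at 126 ± 29.0 (M510F01), 124 ± 42.3 (boscalid) and 530.2 ± 613 (DMSO) normalized counts (SD, n = 4 each). Without DMSO replicate 4, hsp70l was at -0.35 (SE 0.26) with M510F01 and -0.74 (SE 0.36) with boscalid. Hsp70.1 was then at -0.75 (SE 0.31) with M510F01 and -0.80 (SE 0.35) with boscalid. The estimates were thus nearer 0 without that library, and none passed with or without it (limma adjusted p without it of 1 with M510F01 and 0.81 with boscalid, for both genes). The scale of the model mattered too: edgeR, which compares mean reads rather than mean logarithms, gave -1.89 for hsp70l with M510F01 and -2.20 with boscalid.

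**Figure D1:**
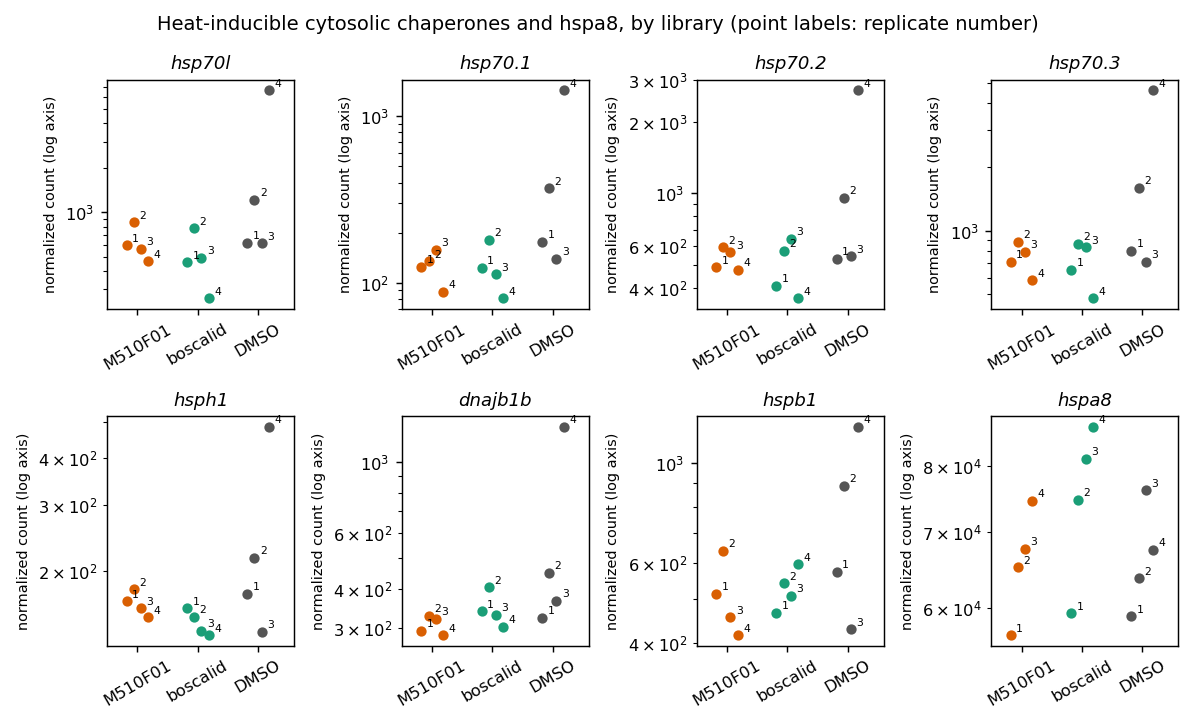
Normalized counts (log axis) of 7 heat-inducible cytosolic chaperone genes and of hspa8 in each library, by group, with replicate numbers beside the points. DMSO replicate 4 is the highest point of all inducible genes shown (6717 for hsp70l), and hspa8 shows no such point.

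DMSO replicate 4 was also the highest of the 12 libraries for several partners of the HSP70 proteins. The J-domain protein gene dnajb1b was at 286 to 328 in the M510F01 libraries, 304 to 404 in the boscalid libraries, 324 to 449 in DMSO replicates 1 to 3 and 1288 in DMSO replicate 4. The nucleotide exchange factor gene hsph1 was at 150.2 to 178 with M510F01, 134 to 159 with boscalid, 137 to 217 in DMSO replicates 1 to 3 and 486 in DMSO replicate 4. Smaller ratios to the median of the other 11 libraries were found for the small heat shock proteins hspb1 (2.34) and hspb9 (2.3), the HSP70 nucleotide exchange factor hspbp1 (2.07), hsp90aa1.2 (1.84) and the ER J-domain protein dnajb9b (1.77). The small heat shock proteins did not move together in DMSO replicate 4. The ratio was 1.18 for hspb2, 1.17 for hspb11, 1.11 for hspb8 and 1.03 for hspb7. It was 0.894 for hspb3, 0.755 for hspb15, 0.554 for hspb6 and 0.358 for hspb12, a gene with few counts. In all, 11 of 98 members (11.2%) were at least 1.5 times that median in this library, against 6.42% of all 23131 genes with a mean of at least 10 counts. It was the highest library for 21 members (21.4%, against 14.2% of all genes), 16 of them in the cytosol and nucleus, 5 in the ER and 0 in the mitochondrion.

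Of the main constitutive HSP70 and HSP90 genes of the cytosol, hspa8, hsp90ab1 and hsp90aa1.1 were not highest in that library. Hspa8, the standing HSP70 of the cytosol and the member with the highest mean count, was at 56814 to 74623 with M510F01, 59396 to 86639.7 with boscalid and 59029 to 76184 with DMSO, and DMSO replicate 4 held 67528. Its log2 fold change was -0.01 with M510F01 (SE 0.13) and 0.17 with boscalid (SE 0.155) against DMSO. The standing HSP90 gene hsp90ab1 averaged 36924 ± 3089 normalized counts with M510F01, 40298 ± 4766 with boscalid and 37132 ± 4144 with DMSO (mean ± SD, n = 4 libraries each). Hsp90aa1.2 was at 3594 to 4834 with M510F01, 3667 to 4807 with boscalid, 3776 to 5056 in DMSO replicates 1 to 3 and 8386 in DMSO replicate 4. Its neighbour hsp90aa1.1, needed for myosin folding in zebrafish muscle, was at 6159 to 7423 with M510F01, 5343 to 8182 with boscalid and 6180.1 to 7756 with DMSO. As these neighbours are similar in sequence, the split of reads between them is uncertain.

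**Figure D2:**
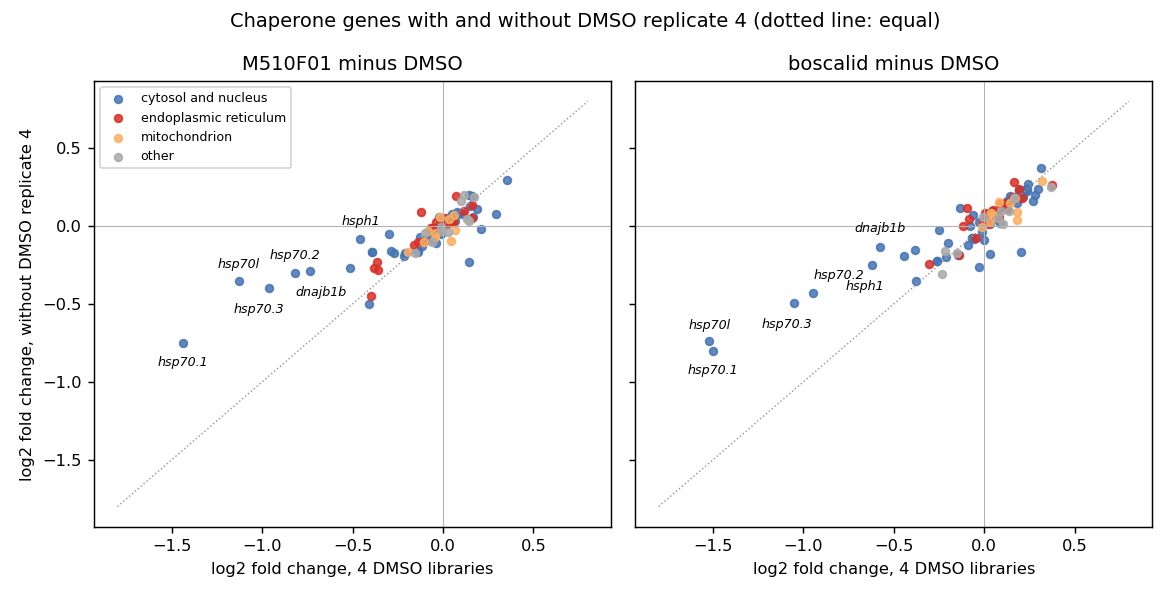
Log2 fold change of each member against DMSO with all 4 DMSO libraries (horizontal axis) and without DMSO replicate 4 (vertical axis), for M510F01 (left) and boscalid (right). The HSP70 copies, dnajb1b and hsph1 lie nearer 0 on the vertical axis than on the horizontal one, as with hsp70l at -1.52 and -0.74 for boscalid, while most other members lie close to the dotted line of equality.

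Spread within groups followed the same genes. Pooled within groups on the log2 scale, the standard deviation was 1.03 for hsp70l, 0.94 for hsp70.1, 0.77 for hsp70.3 and 0.68 for hsp70.2. The median was 0.21 for cytosolic and nuclear members, 0.205 for ER members and 0.18 for mitochondrial members, against 0.23 for all genes. By these medians, which include the inducible genes, the members of each compartment were measured about as tightly as the typical gene. Over all members, 95% confidence intervals had a median width of 0.63 on the log2 scale for boscalid against DMSO (0.72 for all genes). The width was 0.58 for M510F01 against DMSO (0.67 for all genes) and 0.60 for M510F01 against boscalid (0.69 for all genes).

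With boscalid against DMSO, estimates were positive for 59 of 97 members (60.8%, against 50% of all genes) and negative for 38 (39.2%, against 50%). The median log2 fold change was 0.03 for cytosolic and nuclear members (29 positive, 26 negative), 0.06 for ER members (15 and 7) and 0.11 for mitochondrial members (9 and 1), beside -4.38e-05 for all genes. Without boscalid replicate 4 the median fell to 0.02 for ER members (12 positive, 10 negative) and to 0.04 for mitochondrial members (6 and 4). The cytosolic and nuclear median was 0.0058 without boscalid replicate 3, 0.0079 without DMSO replicate 1 and 0.06 without boscalid replicate 1. The single member with a positive estimate at an unadjusted p under 0.05 (1.03% of members, against 3.74% of all genes) was dnajc27, a J-domain protein with a Rab-like GTPase domain, at 0.28 (SE 0.12, with 0.65 as the adjusted p of limma). The 3 with a negative estimate (3.09%, against 3.94% of all genes) were hsp70.1, hsp70l and hspa13. Of 97 members, those under that p in either direction numbered 0 without DMSO replicate 2, 1 without DMSO replicate 4 and 2 without boscalid replicate 3. They numbered 13 without boscalid replicate 1 and 14 without DMSO replicate 3. The count over all genes also moved, from 1774 of 23085 with all libraries. In the same order of left-out libraries it was 1118 of 23080, 1068 of 23078, 907 of 23108, 3819 of 23093 and 3298 of 23094. Hspa13, an ER-associated HSP70 relative, averaged 160.5 ± 20.2 with boscalid, against 199 ± 22.7 for DMSO, in normalized counts (SD, n = 4 each). Its log2 fold change was -0.31 (SE 0.13, limma adjusted p = 0.65), at -0.47 in the libraries numbered 1 and 2 and -0.14 in those numbered 3 and 4. DMSO replicate 4 was the lowest library for dnajc27 and the highest for hspa13. Without that library dnajc27 was at 0.20 (SE 0.12) and hspa13 at -0.24 (SE 0.14).

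The values of the groups seldom lay apart. Boscalid libraries all lay above the DMSO libraries for 1 of 97 members (1.03%), against 2.2% of all genes, and all below for 0, against 2.07%, which together gave 1.03% of members against 4.27% of all genes. That member was dnajc8, a J-domain protein tied in human cells to splicing, at 286, 320.3, 308 and 374 in boscalid libraries 1 to 4 and 264, 271, 278 and 274 in DMSO libraries 1 to 4 (log2 fold change 0.24, SE 0.11, with an adjusted p of 0.65 in limma).

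The cytosolic chaperonin subunits shared a pattern across libraries. The 7 subunits measured (cct2, cct3, cct4, cct5, cct6a, cct7 and cct8) held in sum 14918, 16809.9, 17675 and 20009 normalized counts in M510F01 libraries 1 to 4. They held 15617, 19397, 21086 and 21698 in the boscalid libraries and 15306, 16544, 19501 and 18235 in the DMSO libraries. The library numbered 1 was the lowest of each group, and the groups overlapped. Log2 fold changes ran from 0.07 for cct7 to 0.24 for cct2 with boscalid against DMSO, positive for 7 of 7, and from -0.07 to 0.05 with M510F01 against DMSO, positive for 3 of 7. Between M510F01 and boscalid they ran from -0.20 for cct3 to -0.09 for cct8, negative for 7 of 7. Single libraries carried part of this: between M510F01 and boscalid, cct3 was at -0.09 without boscalid replicate 4 and cct8 at -0.0057 without M510F01 replicate 1, and with boscalid against DMSO cct7 was at 0.02 without boscalid replicate 3. The smallest unadjusted p among these was 0.0869, for cct2 with boscalid (limma adjusted p = 0.65). Because the subunits share their libraries, their common sign is not 7 separate observations.

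**Figure D3:**
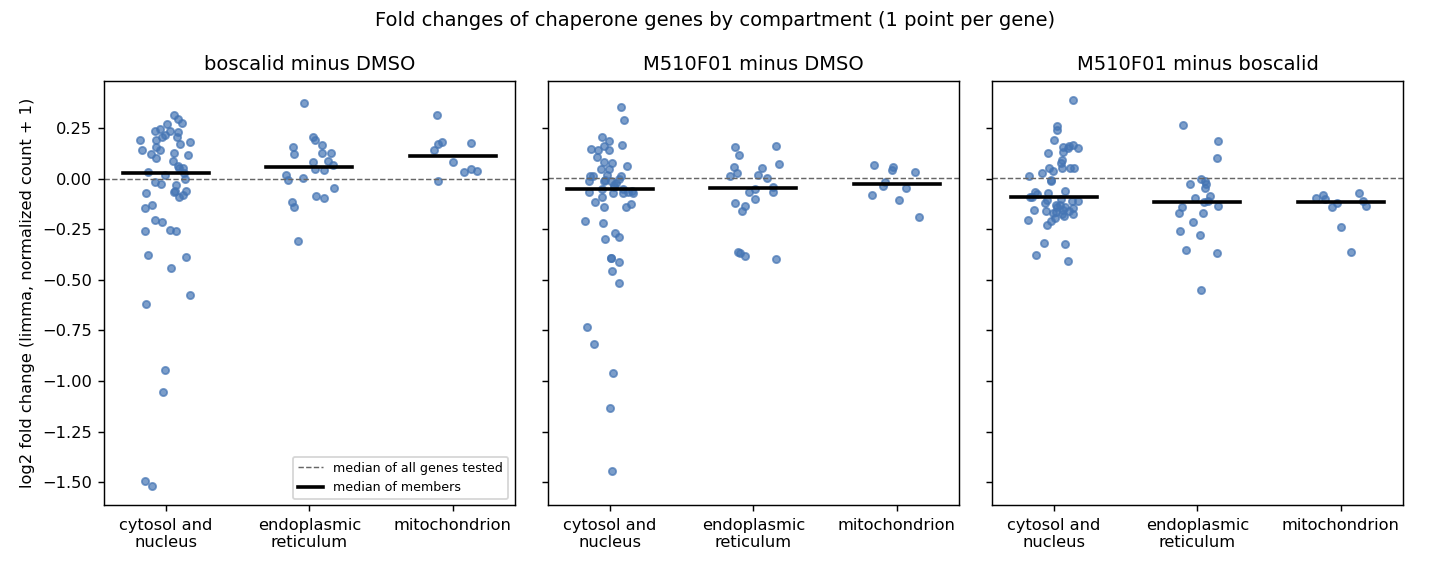
Log2 fold change of each member (1 point per gene) by compartment in the 3 comparisons, with the median of the members as a bar and the median of all genes tested as a dashed line. The HSP70 copies form the low tail of the cytosolic panel against DMSO (down to -1.52), and for M510F01 minus boscalid the mitochondrial points all lie below 0 (-0.36 to -0.07).

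With M510F01 against DMSO, estimates were positive for 39 of 98 members (39.8%, against 51.3% of all genes) and negative for 59 (60.2%, against 48.7%). Median log2 fold changes were -0.05 for cytosolic and nuclear members (19 positive, 36 negative), -0.04 for ER members (10 and 12) and -0.03 for mitochondrial members (4 and 6), beside 0.0044 for all genes. Leaving out M510F01 replicate 1 put the cytosolic and nuclear median at -0.01, and leaving out M510F01 replicate 4 or DMSO replicate 1 put it at -0.08. The mitochondrial median turned to between 0.0014 and 0.0060 without M510F01 replicate 1, M510F01 replicate 2 or DMSO replicate 3 and was -0.06 without DMSO replicate 1. No member had a positive estimate at an unadjusted p under 0.05, where 1.51% of all genes did. All 5 members under it were negative (5.10%, against 2.1% of all genes), namely hsp70.1 and 4 ER genes. This count changed with single libraries: it was 0 without DMSO replicate 2, 1 without M510F01 replicate 1 and 2 without M510F01 replicate 3. It was 3 without DMSO replicate 4 or M510F01 replicate 2, 10 without DMSO replicate 3 and 13 without DMSO replicate 1. Over all genes, in both directions, 837 of 23193 were under that p with all libraries. These numbered 552 of 23182 without DMSO replicate 2, 1877 of 23195 (12 of 98 members) without DMSO replicate 3 and 997 of 23164 (13 of 98 members) without DMSO replicate 1. They numbered 451 of 23174 without DMSO replicate 4, and 688 of 23160, 772 of 23182 and 709 of 23200 without M510F01 replicates 1, 2 and 3. M510F01 libraries all lay above the DMSO libraries for 1 member (1.02%, against 1.12% of all genes), dnajc14 of the ER membrane (279 to 314 with M510F01 and 247 to 275 with DMSO), and all below for 0 (against 1.06%). In total 1.02% of members and 2.18% of all genes had groups that did not overlap.

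All 4 ER genes encode folding enzymes or chaperones of the ER lumen. Hsp90b1 (LL0000012372), the ER form of HSP90, was at 1689.6, 1952, 1859 and 2173 in M510F01 libraries 1 to 4, at 2352, 3198, 2694 and 3036 in boscalid libraries 1 to 4 and at 1907, 2575, 2499 and 3154 in DMSO libraries 1 to 4. Hspa5, the ER form of HSP70, was at 1899, 1902, 2245 and 2448 with M510F01, at 2227, 2809, 2605 and 2645 with boscalid and at 2093, 2873, 2533 and 3594 with DMSO. M510F01 libraries were low for both genes, and they overlapped with the DMSO libraries because DMSO replicate 1 was low as well.

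Against DMSO the log2 fold change with M510F01 was -0.38 for hsp90b1 (SE 0.15) and -0.37 for hspa5 (SE 0.16). The disulfide isomerase gene pdia4 was at -0.36 (SE 0.15) and its relative pdia6 at -0.40 (SE 0.16). The limma adjusted p of these 4 genes was at least 0.9998. Pdia6 was lowest in M510F01 libraries 1 and 2 (259.6 and 312, against 419.9 and 439 in libraries 3 and 4), and its log2 fold change was -0.74 in the libraries numbered 1 and 2 and -0.06 in those numbered 3 and 4. Without M510F01 replicate 1 it was -0.25. DMSO replicate 4 was the highest DMSO library for hsp90b1, hspa5 and pdia4. Without it the estimates with M510F01 were -0.27 for hsp90b1 (SE 0.14), -0.23 for hspa5 (SE 0.14), -0.28 for pdia4 (SE 0.15) and -0.45 for pdia6 (SE 0.18). Over the 22 ER members the median with M510F01 was then 0.01 (12 positive, 10 negative), and with boscalid it was 0.10 (19 positive, 3 negative).

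**Figure D4:**
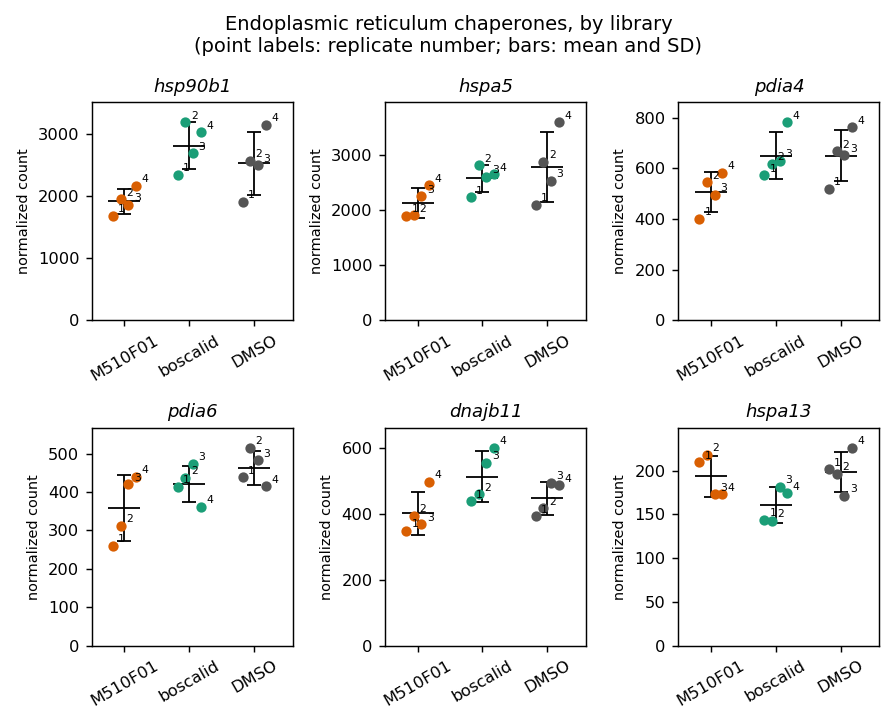
Normalized counts of 6 ER chaperone genes in each library, by group, with replicate numbers beside the points, the mean as a horizontal bar and the SD as an error bar. For hsp90b1 the 4 M510F01 libraries (1689.6 to 2173) lie below the 4 boscalid libraries (2352 to 3198), and the DMSO libraries span both.

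M510F01 and boscalid, compared at the same concentration and age, gave the widest imbalance of signs. Estimates were negative, that is, lower with M510F01, for 68 of 98 members (69.4%, against 49.3% of all genes) and positive for 30 (30.6%, against 50.7%). Negative estimates were found for 35 of 55 cytosolic and nuclear members (median log2 fold change -0.09), 19 of 22 ER members (median -0.11) and 10 of 10 mitochondrial members (median -0.115), beside a median of 0.0032 for all genes. The mitochondrial estimates ran from -0.36 to -0.07. Without boscalid replicate 4 their median was -0.04, with 8 of 10 negative and hspe1 at 0.02, and the ER median was -0.07 (16 of 22 negative). Without M510F01 replicate 1 the ER median was -0.06 (17 of 22 negative). Because members share their libraries, signs counted over genes are not separate observations, in this comparison or the others. At an unadjusted p under 0.05 there were 0 members with a positive estimate (against 2.19% of all genes) and 5 with a negative one (5.10%, against 2.41%). The negative ones numbered 18 without boscalid replicate 1, 9 without M510F01 replicate 4, 3 without boscalid replicate 4 and 4 to 7 without any other single library. There were 2 positive ones without boscalid replicate 3 or boscalid replicate 4. There was 1 without each of boscalid replicate 1, M510F01 replicate 3, M510F01 replicate 4 and DMSO replicate 4. The count over all genes, in both directions, also moved, from 1062 of 23075 with all libraries (5 of 98 members). It was 3458 of 23073 without boscalid replicate 1 (19 of 98 members) and 1885 of 23103 without M510F01 replicate 4 (10 of 97 members). Without boscalid replicate 4 it was 772 of 23094 (5 of 98 members).

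Hsp90b1 had the smallest unadjusted p of any member in any of the 3 comparisons. It averaged 1919 ± 201 normalized counts with M510F01 and 2819.8 ± 376 with boscalid (SD, n = 4 each). The log2 fold change was -0.55 (SE 0.15, 95% confidence interval -0.87 to -0.23, limma adjusted p = 0.84), and all M510F01 libraries lay below all boscalid libraries. It was -0.59 in the libraries numbered 1 and 2 and -0.51 in those numbered 3 and 4, and ran from -0.64 to -0.49 when 1 library was left out (limma adjusted p from 0.31 to 1). The adjusted p was 0.86 with edgeR and 0.22 with DESeq2.

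The other members under an unadjusted p of 0.05 with M510F01 against boscalid came from all 3 compartments. Dnajc8 was at -0.32 (SE 0.11), with 257 ± 32.1 normalized counts with M510F01 and 322 ± 37.4 with boscalid. Dnajc19, a J-domain protein of the mitochondrial protein import motor, was at 124, 109, 119 and 123 in M510F01 libraries 1 to 4 and at 132, 160.2, 162 and 159 in boscalid libraries 1 to 4, which did not overlap (log2 fold change -0.36, SE 0.14). Dnajb11, the J-domain partner of BiP in the ER, was at -0.35 (SE 0.14), and pdia4 at -0.37 (SE 0.14). The limma adjusted p was 0.84 for each of these 4 genes.

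Groups did not overlap for 4 members in this comparison (4.08%, against 2.44% of all genes). M510F01 was lower for 3 (3.06%, against 1.39%), which were hsp90b1, dnajc19 and dnajc5ga, a relative of cysteine string protein at 492 to 529 with M510F01 and 537 to 563 with boscalid. It was higher for 1 (1.02%, against 1.05%), dnajb5, at 124 to 158 with M510F01 and 114 to 123 with boscalid.

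For the remaining mitochondrial chaperones the groups overlapped in each of the 3 comparisons. Hspa9, the HSP70 of the matrix, averaged 3692 ± 506 normalized counts with M510F01, 4008 ± 528 with boscalid and 3894 ± 357 with DMSO (mean ± SD, n = 4 libraries each). The chaperonin gene hspd1 averaged 1862 ± 164 with M510F01, 2216 ± 357 with boscalid and 2125 ± 163 with DMSO. Its neighbour and partner hspe1 averaged 692 ± 78.4 with M510F01, 749 ± 169 with boscalid and 744 ± 84.1 with DMSO. For hspd1 the log2 fold change was -0.19 with M510F01 against DMSO (SE 0.10), 0.05 with boscalid against DMSO (SE 0.13) and -0.24 with M510F01 against boscalid (SE 0.12), and none passed. Boscalid replicate 4 was the highest of the 12 libraries for 7 of 10 mitochondrial members, and for 29 of 98 members in all (29.6%, against 13.4% of all genes). M510F01 replicate 1 was the lowest library for 24 members (24.5%, against 11.5% of all genes).

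**Figure D5:**
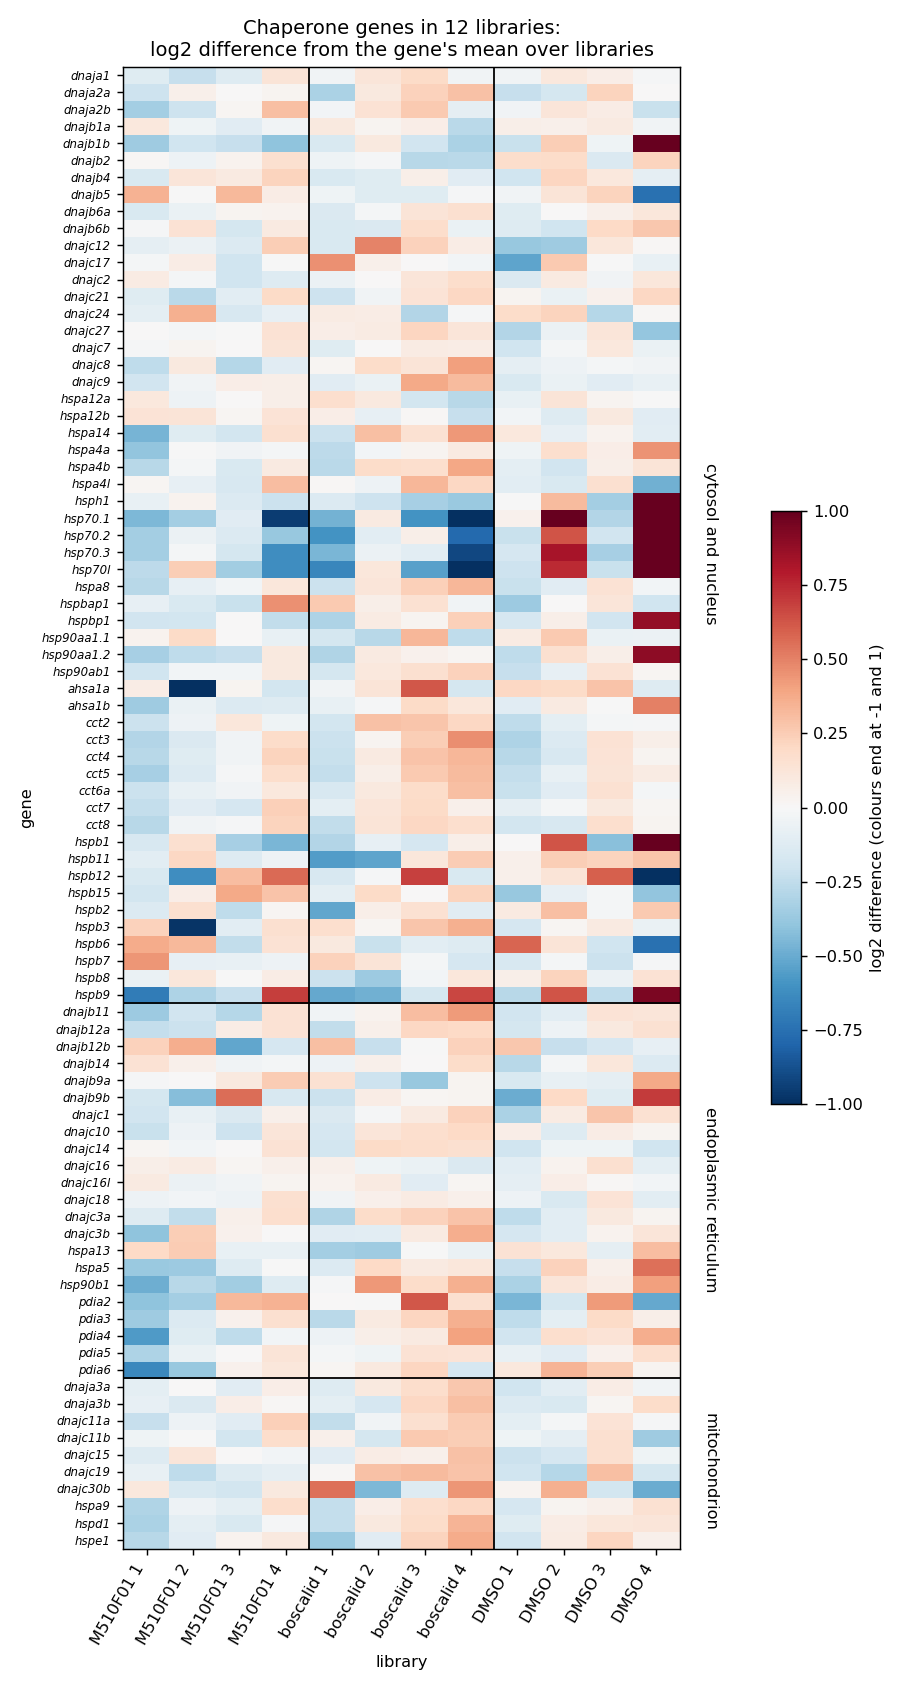
Log2 difference of each cytosolic, ER and mitochondrial member (rows) from its own mean over the 12 libraries (columns, by group), with colours ending at -1 and 1. DMSO replicate 4 is dark red for the HSP70 copies, dnajb1b, hsph1 and hspb1, and M510F01 replicate 1 is blue for most ER and mitochondrial genes.

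Cytosolic partners and small heat shock proteins followed no common direction. The HSP90 activators ahsa1a and ahsa1b had negative estimates with M510F01 against DMSO, at -0.41 (SE 0.22) for ahsa1a and -0.29 (SE 0.14) for ahsa1b, and with M510F01 against boscalid, at -0.41 (SE 0.23) and -0.23 (SE 0.13). Without M510F01 replicate 2, which held 97.3 normalized counts of ahsa1a, that gene was at -0.16 against DMSO and -0.16 against boscalid, and without DMSO replicate 4 ahsa1b was at -0.16 with M510F01 against DMSO. With boscalid against DMSO ahsa1a was at -0.0033 and ahsa1b at -0.06. The 10 small heat shock proteins had 4 positive and 6 negative estimates with each compound against DMSO, from -0.52 for hspb1 to 0.35 for hspb15 with M510F01 and from -0.44 for hspb1 to 0.30 for hspb15 with boscalid. Without DMSO replicate 4 hspb1 was at -0.27 with M510F01 and -0.195 with boscalid. Among J-domain proteins, dnaja1 averaged 733 ± 80.4 with M510F01, 810.2 ± 64.9 with boscalid and 793 ± 36.2 with DMSO, and dnajb1a 1049.7 ± 66.8 with M510F01, 1056 ± 117 with boscalid and 1096 ± 40.3 with DMSO (mean ± SD, n = 4 libraries each).

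The pathway's other genes were followed in 5 lists of 94 genes outside the symbol rule, of which 91 were in the tables, and none passed an adjusted p of 0.05 in limma. Heat shock factor 1 (hsf1) averaged 519.7 ± 44.3 normalized counts with M510F01, 495 ± 112 with boscalid and 596 ± 70.5 with DMSO (mean ± SD, n = 4 libraries each). Of 14 unfolded protein response signalling genes, 2 had an unadjusted p under 0.05 with each compound against the shared DMSO libraries, trib3 and atf3, with negative estimates (14.3%, against 2.1% of all genes with M510F01 and 3.94% with boscalid). Trib3, a pseudokinase gene induced by the transcription factor ATF4, averaged 622 ± 121 with M510F01, 552 ± 131 with boscalid and 879.5 ± 120 with DMSO, and its groups did not overlap with DMSO for either compound, which held, in the lower direction, for 1.06% of all genes with M510F01 and 2.07% with boscalid. Its log2 fold change was -0.51 with M510F01 (SE 0.14) and -0.69 with boscalid (SE 0.16), and its limma adjusted p was at least 0.9998 with M510F01 and 0.41 with boscalid. Atf3, a stress-responsive transcription factor, was at 275 to 392 with M510F01, 198 to 351 with boscalid, 373 to 554 in DMSO replicates 1 to 3 and 1053 in DMSO replicate 4. With boscalid the atf3 values also lay below all DMSO libraries. All libraries of a compound thus lay below DMSO for 2 of the 14 genes with boscalid (14.3%) and 1 with M510F01 (7.14%). Neither trib3 nor atf3 was refitted without DMSO replicate 4. The ER stress genes xbp1 and ddit3 had log2 fold changes from -0.04 to 0.07 and from -0.12 to 0.07 over the 3 comparisons.

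The lists outside the symbol rule were fitted only with all libraries, so how far single libraries carry their values was not tested. They were measured in the same libraries as the members and chosen with earlier results of these data known, so a shared sign is not a separate observation. Between M510F01 and boscalid the ER list had the same sign as the ER members. Of its 27 tested genes 23 had negative estimates (85.2%, against 49.3% of all genes; median log2 fold change -0.16), and 5 had an unadjusted p under 0.05 (18.5%, against 2.41% of all genes in this direction). Those 5 were the ER lectin genes calr (-0.35, SE 0.12) and calr3a (-0.40, SE 0.14), the HSP70 relative hyou1 (-0.32, SE 0.13), the ER-resident factor manf (-0.43, SE 0.18) and the translocon-associated ssr1 (-0.31, SE 0.14). In the cytosolic list 23 of 30 were negative (76.7%, median -0.12) and 3 (10%) were under that p, with bag2 (-0.44, SE 0.13) and the HSP90 partner cdc37 (-0.32, SE 0.14) beside serpinh1b, a collagen chaperone of the ER that stood in this list (-0.34, SE 0.15). In the mitochondrial list 12 of 15 were negative (80%, median -0.05), and 1 (6.67%) was under it, trap1, the mitochondrial HSP90 (-0.28, SE 0.12). The limma adjusted p of each was 0.84. The unfolded protein response list had the other sign in this comparison, with 9 of 14 positive (median 0.08). With M510F01 against DMSO the ER list had 22 of 27 negative (81.5%, against 48.7% of all genes, median -0.13) and 0 under an unadjusted p of 0.05. The cytosolic list had 20 of 30 negative (median -0.04) and 1 under that p, with a negative estimate (3.33%, against 2.1% of all genes in this direction). The mitochondrial list had 9 of 15 positive (median 0.0065) and 0 under it. With boscalid against DMSO estimates were positive for 17 of 27 genes of the ER list (median 0.04), 21 of 30 of the cytosolic list (median 0.08) and 12 of 15 of the mitochondrial list (median 0.09), against 50% of all genes. In each of these lists 1 gene had an unadjusted p under 0.05 with a positive estimate and 0 with a negative one (against 3.74% and 3.94% of all genes). In the ER list the boscalid libraries all lay above DMSO for 1 gene and all below for 1 (against 2.2% and 2.07% of all genes).

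Every marker listed for skeletal muscle, lens, liver, exocrine pancreas, erythrocytes and neutrophils had reads in every library, as whole larvae hold these tissues. Exocrine pancreas is a secretory tissue rich in ER, and the sum of its 5 markers was 27779 to 40582 with M510F01, 34845 to 55409 with boscalid and 29739 to 45196 with DMSO. The lowest DMSO sum (29739) was that of replicate 4. Of these markers 3 of 5 had an unadjusted p under 0.05 and a positive estimate with boscalid against DMSO (against 3.74% of all genes), led by ela2 at a log2 fold change of 0.81 (SE 0.23, limma adjusted p = 0.51). With M510F01 against boscalid all 5 were negative, from -0.48 for ela2 (SE 0.23) to -0.24 for ctrb1 (SE 0.16), and none had an unadjusted p under 0.05. The part of this tissue in the ER values was not tested. The sum of the 2 neutrophil markers was 195 to 361 with M510F01, 204 to 283 with boscalid and 255 to 431 with DMSO, where replicate 4 was the highest library. With boscalid against DMSO these 2 markers had opposite signs, mpx at -0.53 (SE 0.21, limma adjusted p = 0.65) and lyz at 0.16 (SE 0.20), and mpx had an unadjusted p under 0.05. In DMSO replicate 4 the sum of the 2 erythrocyte markers was also the highest (1078). Their part in the HSP70 values of that library was not tested.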

How the data were processed

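Stranded total RNA libraries with ribosomal RNA removed were sequenced from whole larvae, per the labels. Tools named without versions in the submitters' processing notes are DESeq2, featureCounts, STAR, cutadapt and FastQC. The genome build, annotation and strandedness of counting were not given in the sources used here. The authors deposited, in a separate table for each compound, a signal in normalized counts, which are the reads of a gene over 1 size factor for each library. They also deposited log2 fold changes with standard errors, a test statistic (a score) and a p-value with its adjusted p-value per gene. By the authors' deposited tables, 0 of 98 members had an adjusted p under 0.05, against 87 of all genes with boscalid and 0 with M510F01, and the smallest was 0.435 with boscalid and 0.999 with M510F01. Whole reads were recovered for 100% of the values within 0.01 reads.

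Members, compartments and lists were chosen with earlier results of these data known. The test was that of limma 3.58.1 (R 4.3.3; with trend and robust) on log2(normalized count + 1), for genes averaging at least 10 counts over the libraries compared. Benjamini-Hochberg adjustment ran over all genes tested, with a threshold of 0.05, and fold changes of low genes are understated by the added 1. Each compound was compared with DMSO in its own table. M510F01 and boscalid were compared in a joint fit of all 12 libraries rescaled by median-of-ratios size factors, and printed levels are on that joint scale. The DMSO values of the tables differed by a ratio of 1.00296 to 1.00541. Recovered reads were tested with edgeR 4.0.16 and DESeq2 1.42.0. Scripts were tested on simulated data.

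Named were members with an unadjusted p under 0.05, a fixed set of main chaperones of each compartment and the extremes in mean count. Dnajc14, dnajb5, dnajc5ga and the genes named for their ratio in DMSO replicate 4 were named after their values were seen. Alternatives covered the pseudocount, the filter, scaling, the tool, the replicate number as a term and leaving out each library. Libraries of a group differed by a chi-square of 5.43 to 41.7 for each gene on average, so none are copies. RefSeq (GRCz12tu) served for names and neighbours, and matched 98 of 98 members. Among these, hsp70.2 was matched to the RefSeq entry of hsp70.1, and hspb11 to an entry named hspb9l. Counts are not divided by transcript length, so levels of different genes were not compared. Figures were drawn with matplotlib 3.10.9 and pandas 2.3.3 under Python 3.11.15.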

Additional observations from a re-analysis of the deposited data

Results flagged for a closer look

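In 7 of 126 sets of 4 libraries (5.56%) 1 library stood apart, which means that its gap to the nearest library, divided by the range of the group, was above the 95% critical value of Dixon's test for 4 samples. Chance gives this in about 1 set in 20. On normalized counts hsp70l in DMSO had a ratio of 0.903 (replicate 4 at 6717, the others at 615 to 1209.6), dnajb1b in DMSO 0.87 (replicate 4 at 1288, the others at 324 to 449) and dnajb9a, an ER J-domain protein, in DMSO 0.875 (replicate 4 at 125, the others at 86.4 to 91.2). Dnajc19 stood out in both boscalid, at 0.884 (replicate 1 at 132, the others at 159 to 162), and DMSO, at 0.846 (replicate 3 at 161, the others at 107 to 115). The ratio was 0.831 for dnajc27 in M510F01 (replicate 4 at 389, the others at 348 to 355) and 0.864 for hsp90aa1.1 in boscalid (replicate 3 at 8182, the others at 5343 to 5729). On the log2 scale 3 of the 7 were above the limit: dnajb9a in DMSO, dnajc19 in boscalid and hsp90aa1.1 in boscalid. The sets were first examined on the log2 scale and then on the printed counts.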

How the results depend on the processing

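No member was called under any alternative run apart from 1 with the replicate number as a block. For boscalid against DMSO the 4 genes called became 91 with DESeq2, 19 with a term that separates numbers 1 and 2 from 3 and 4, 0 with only the libraries numbered 3 and 4, 9 in the joint fit, and 2 to 8 without 1 library (2 without DMSO replicate 1, DMSO replicate 2, boscalid replicate 2 or boscalid replicate 3, and 8 without DMSO replicate 3). For M510F01 against DMSO the 0 called became 4 with only the libraries numbered 1 and 2 and 1 with only those numbered 3 and 4, and stayed 0 without any 1 library. For M510F01 against boscalid the 3 called became 20 with DESeq2 and 5 with that term for the numbers, and were 2 to 3 without 1 library. The causes were not tested.

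The replicate numbers were not taken as pairs, since the labels do not tie them to a clutch or batch and not every correlation between same-numbered libraries was over 0.1. These ran from -0.0243 to 0.51, with 8 of 12 over 0.1. Each library was matched in every comparison it entered, with 4 libraries of the other group to match. In 12 of 24 such matches a library correlated best with its own number, and the libraries numbered 1 did so in every match. This is a hint from the data and not the design. With the replicate number as a block, 90 genes were called for boscalid against DMSO, 1 for M510F01 against DMSO and 8 for M510F01 against boscalid. The 8 included 1 member, hsp90b1 (log2 fold change -0.55, limma adjusted p = 0.0454).

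Over the alternatives 6 of 210 compartment medians changed sign: with boscalid against DMSO the cytosolic one (-0.0033 with a minimum mean of 50) and the mitochondrial one (-0.0053 in the libraries numbered 1 and 2), and with M510F01 against DMSO the ER one (0.015 without DMSO replicate 4) and the mitochondrial one (0.0014 to 0.0060 without M510F01 replicate 1, M510F01 replicate 2 or DMSO replicate 3). Of 2911 fold changes of 42 named members, 128 changed sign and 1 passed. None of the 128 was of a gene with an unadjusted p under 0.05 in that comparison with all libraries. Moves by more than the spread between replicates were counted only for genes not under that p, and there were 8. Genes under it were not put to this check, such as pdia6 with M510F01 against DMSO. Its estimate was -0.40 with all libraries, -0.74 in those numbered 1 and 2 and -0.06 in those numbered 3 and 4. The 8 were hsp90aa1.1 with boscalid against DMSO (-0.40 in the libraries numbered 1 and 2, 0.11 in those numbered 3 and 4) and, for M510F01 against boscalid in the same order, hspa13 (0.57 and -0.04), hspb1 (0.19 and -0.34) and pdia6 (-0.57 and 0.06). Read depth and 4 libraries a group left 95% confidence intervals of a median width of 0.58 to 0.63 in log2 over the members, and changes well inside such an interval were not detectable. For the 5 cytosolic HSP70 genes the median width was larger, at 1.92 to 2.32 over the comparisons. These intervals are not adjusted for the number of genes, so larger changes could go uncalled too. An example is hsp90b1 at -0.55 between M510F01 and boscalid (limma adjusted p = 0.84 with groups alone fitted).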
